A study of Mus musculus with 4 samples.

Results

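The genes described here encode potassium channel subunits: all genes of the deposited tables whose symbol starts with Kcn, together with Dpp6 and Dpp10, 93 of 28545 genes. They were sorted by symbol into 62 pore-forming subunits, 9 modifier subunits (Kcnf, Kcng, Kcns and Kcnv, which do not form channels alone), 18 auxiliary subunits (Kcnab, Kcne, Kcnip, Kcnmb, Dpp6 and Dpp10) and 4 others that are no channel subunit. Membership goes by symbol, but the family was selected on measured differences: Dpp6 and Kcne4 stood out between the libraries labelled Cre+/- and fl/fl. For that reason differences between these groups are given as descriptions, with no p-value for a single member. The 4 libraries hold polyadenylated RNA of mouse endometrium, the lining of the uterus, and 2 of them are labelled SMAD7 Cre+/- (treatment label CKO) and 2 SMAD7fl/fl (treatment label blank). The mice of both groups carry a Smad7 gene with loxP sites, made by injecting guide RNA, donor vector and Cas9 mRNA into fertilized eggs, and those labelled Cre+/- carry Cre recombinase as well. All were in proestrus, the phase before ovulation, while the design text names uterine tissue rather than endometrium. The sources used here do not give the Cre line, the deleted exons or the age of the mice, and nothing says that the libraries come from separate animals.

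Potassium channels let potassium ions leave the cell and so hold or restore the negative membrane potential. The pore is built from pore-forming subunits, while auxiliary subunits bind to it and set how fast it opens, at which voltage or calcium level, and how many channels reach the surface. In the uterus, channels of this family set the excitability of smooth muscle in the myometrium, the tone of blood vessels and the movement of salt and water across the epithelium.

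Total counts ran from 17444368 to 22950532 per library. Smad7, the targeted gene, was at 49.9 and 33.9 FPKM (a count normalised to gene length and library total) in Cre+/- labelled libraries, against 7.79 and 7.81 FPKM in fl/fl labelled ones, so it goes against a label of loss, and every direction below is between labelled libraries. Counts are per gene, so loss of single exons was not analysed here. The libraries labelled fl/fl were far less alike than those labelled Cre+/-, with a biological coefficient of variation of 0.163 for the Cre+/- pair and 0.404 for the fl/fl pair. All 9 epithelial markers and all 7 stromal markers were detected in every library, which fits the label endometrium, but so were 9 of 10 smooth muscle markers. Summed over that list, smooth muscle markers stood at 9370 and 8190 CPM (counts scaled to library size by TMM, with no length correction) in Cre+/- labelled libraries, against 5420 and 4500 CPM in fl/fl labelled ones. In whole tissue, fewer cells of a type and less RNA per cell cannot be told apart.

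The promoters of the 3 members that carry most of the description below are given first, from 250 bases before to 50 bases after the start annotated for the window. The gene starts printed further below come from another annotation (GENCODE) and lie at other positions within these windows. They are the auxiliary subunits Kcne4 and Dpp6 and the pore-forming subunit Kcnk5, which had high values in both libraries labelled Cre+/-. Sequences are from RefSeq on GRCm38.p6, 5′ to 3′ on the strand of the gene, and capitals mark matches to the SMAD box CAGAC on either strand. Dpp6 has 3 such windows and the one nearest to the start of the gene is shown.
Kcne4, chr1:78816661-78816960, plus strand: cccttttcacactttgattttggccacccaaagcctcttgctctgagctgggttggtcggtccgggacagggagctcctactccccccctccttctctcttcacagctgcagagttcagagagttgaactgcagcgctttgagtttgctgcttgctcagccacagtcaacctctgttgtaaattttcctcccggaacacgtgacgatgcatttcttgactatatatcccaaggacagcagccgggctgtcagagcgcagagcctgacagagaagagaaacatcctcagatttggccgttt
Dpp6, chr5:26817107-26817406, plus strand: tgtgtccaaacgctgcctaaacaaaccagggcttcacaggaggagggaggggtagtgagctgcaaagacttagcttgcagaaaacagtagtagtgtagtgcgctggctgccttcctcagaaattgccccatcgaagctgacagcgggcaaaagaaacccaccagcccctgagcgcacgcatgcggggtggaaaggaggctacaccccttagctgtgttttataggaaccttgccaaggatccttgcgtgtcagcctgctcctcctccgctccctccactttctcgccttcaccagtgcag
Kcnk5, chr14:20181733-20182032, minus strand: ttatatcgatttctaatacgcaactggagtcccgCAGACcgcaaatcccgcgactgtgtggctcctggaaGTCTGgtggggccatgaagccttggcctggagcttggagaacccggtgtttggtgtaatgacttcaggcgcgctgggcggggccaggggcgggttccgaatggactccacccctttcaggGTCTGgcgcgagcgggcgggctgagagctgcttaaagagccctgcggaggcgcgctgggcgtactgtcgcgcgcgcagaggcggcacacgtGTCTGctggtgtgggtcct

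The windows of Kcne4 and Dpp6 held no match to CAGAC, to GGTCA, the core of the estrogen response element, or to the CArG box, the binding motif of serum response factor. The window of Kcnk5 held 4 matches to CAGAC and none to the other motifs, and 0.907% of 32851 promoter windows held as many or more. Over all windows 49.6% held at least 1 match to CAGAC, 40.5% to GGTCA and 1.63% to the CArG box, with both strands searched. Windows were at hand for 70 of the 93 members, and for 26 of the 34 members with a mean level of at least 1 FPKM. Those 26 members had 43 windows, of which 25 held CAGAC, 13 held GGTCA and 0 held a CArG box. The GC content was 52.7% for Kcne4, 56.0% for Dpp6 and 63.7% for Kcnk5, against a median of 52.7% over all windows. These matches are a description of letters in a window.

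Few members made up most of the potassium channel RNA in this tissue. Only 34 of the 93 members had a mean of at least 1 FPKM over the 4 libraries, 10 had at least 5 and 4 had at least 10. The 5 members with the highest means held 54.2% of the summed FPKM and the 10 highest held 68.4%. By family, the tandem-pore leak channels (Kcnk) held 28.2%, the Kcne subunits 16.1%, the inward rectifiers (Kcnj) 12.1% and the ether-a-go-go channels (Kcnh) 8.13%. These shares are of means over all 4 libraries. The Kcne sum was 52.5 and 51.7 FPKM in Cre+/- labelled libraries, against 18.9 and 19.1 FPKM in fl/fl labelled ones.

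**Figure D1:**
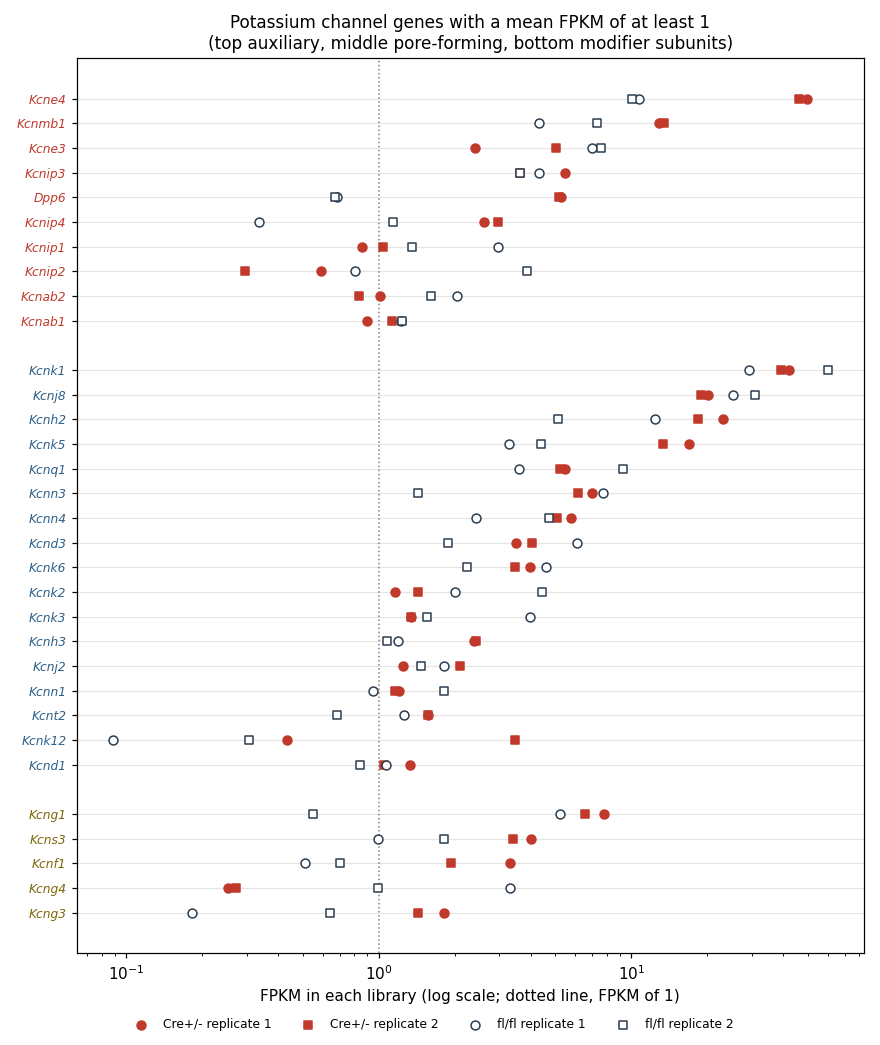
Level of 32 of the 34 members with a mean of at least 1 FPKM, in FPKM on a log axis, with 1 point per library (filled, libraries labelled Cre+/-; open, libraries labelled fl/fl), in blocks of auxiliary, pore-forming and modifier subunits. Kcnk1, Kcne4 and Kcnj8 lie farthest to the right, and the open points of many genes lie farther apart than the filled ones.

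Kcnk1, a weakly conducting leak channel of epithelia and other tissues, had the highest mean at 42.7 FPKM. It stood at 42.0 and 39.3 FPKM in Cre+/- labelled libraries, against 29.3 and 60.1 FPKM in fl/fl labelled ones, so the groups overlapped and the fl/fl pair enclosed the Cre+/- pair. Exons of another annotated gene cover 8.01% of its exon bases. Kcne4 came second (mean 29.2 FPKM), and Kcnj8, the pore of the ATP-sensitive channel of vascular smooth muscle and pericytes, next (23.9 FPKM). That order is of means over all 4 libraries and differed by group. In fl/fl labelled libraries Kcne4 (10.7 and 10.1 FPKM) lay below Kcnj8 (25.4 and 30.9 FPKM). In Cre+/- labelled ones Kcne4 (49.7 and 46.2 FPKM) lay above Kcnk1. Kcnh2, a channel that ends long depolarizations in heart and myometrium, followed in the order of means at 14.8 FPKM. Kcnmb1 and Kcnk5 came after it at 9.51 and 9.5 FPKM, and then Kcnq1 (5.87), Kcnn3 (5.58), Kcne3 (5.50) and the modifier Kcng1 (5.02). These last 4 means lie closer together than the spread of their libraries, so their order is not resolved.

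Kcne4 and Dpp6 had the clearest separation of the groups among the auxiliary subunits. Kcne4 (ENSMUSG00000047330, chromosome 1 from 78816758 to 78820028, plus strand, GRCm38) is a single-pass membrane protein that inhibits Kcnq1 currents when both are expressed in the same cell. It stood at 49.7 and 46.2 FPKM in Cre+/- labelled libraries, against 10.7 and 10.1 FPKM in fl/fl labelled ones, a log2 fold change of 2.20 ± 0.20 (SE, n = 2 each). The libraries of a group lay close together, the counts were 2619 and 2141 (Cre+/-) against 654 and 489 (fl/fl), and leaving out any 1 library gave 2.14 to 2.26. Dpp6 (ENSMUSG00000061576, chromosome 5 from 26817203 to 27727505, plus strand) is a membrane protein of the dipeptidyl peptidase family, without peptidase activity, that speeds up the gating of Kcnd channels and helps them to the surface. It stood at 5.28 and 5.17 FPKM in Cre+/- labelled libraries, against 0.681 and 0.672 FPKM in fl/fl labelled ones. Its log2 fold change was 2.94 ± 0.21, and 2.91 to 2.98 with 1 library left out. Dpp10, its relative, was next to absent, with 0 and 4 counts in Cre+/- labelled libraries, against 3 and 2 counts in fl/fl labelled ones.

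The remaining Kcne members went other ways. Kcne3, which holds Kcnq1 channels open in secretory epithelia, was at 2.41 and 5.03 FPKM in Cre+/- labelled libraries, against 6.98 and 7.60 FPKM in fl/fl labelled ones. The groups did not overlap, but the Cre+/- libraries differed 2.08-fold in CPM, and the log2 fold change of -0.98 ± 0.45 ran from -1.60 to -0.55 with 1 library left out. Kcne1, Kcne2 and Kcne1l each averaged under 1 FPKM, and Kcne1 had 49 counts in fl/fl replicate 2 and 2 to 4 counts in each other library. Kcne4 made up 94.7% and 89.3% of the summed Kcne FPKM in Cre+/- labelled libraries, against 56.8% and 53.0% in fl/fl labelled ones. Per length, Kcne4 stood at 9.13 and 8.87 times the FPKM of Kcnq1 in Cre+/- labelled libraries, against 2.99 and 1.09 times in fl/fl labelled ones. Kcnq1 itself, a voltage-gated pore that pairs with Kcne subunits, was at 5.45 and 5.21 FPKM in Cre+/- labelled libraries, against 3.59 and 9.24 FPKM in fl/fl labelled ones, which enclosed the other pair.

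Kcnmb1, the auxiliary subunit that raises the calcium sensitivity of the large-conductance channel in smooth muscle, was at 12.9 and 13.5 FPKM in Cre+/- labelled libraries, against 4.32 and 7.34 FPKM in fl/fl labelled ones. Its log2 fold change was 1.16 ± 0.33, and 0.79 to 1.65 with 1 library left out. Its pore, Kcnma1, averaged 0.932 FPKM over an exon length of 16976 bases and so lay just below the filter on low genes. Kcnma1 stood at 1.16 and 1.38 FPKM in Cre+/- labelled libraries, against 0.916 and 0.275 FPKM in fl/fl labelled ones. Its log2 fold change was 1.05 ± 0.38 when no filter was used. An SE from that fit is not comparable with one from the filtered fit. Without the filter the SE went from 0.52 to 0.30 for Kcnd3, whose fl/fl libraries also lay far apart, and from 0.20 to 0.31 for Kcne4. The fl/fl libraries differed 3.11-fold in CPM of Kcnma1, so the ratio of Kcnmb1 to Kcnma1 was 11.1 and 9.78 in Cre+/- labelled libraries, against 4.72 and 26.7 in fl/fl labelled ones, and the groups overlapped. Between the groups, both genes differed in the same direction as most smooth muscle markers. Of 9 such markers tested, 8 were higher in both libraries labelled Cre+/- than in either labelled fl/fl and 0 were lower. Their median log2 fold change was 0.72. Within the fl/fl pair, Kcnmb1 was lower in replicate 1 than in replicate 2 (17.5 against 31.9 CPM). The summed markers (5420 against 4500 CPM) and Kcnma1 (15.1 against 4.83 CPM) were higher in replicate 1. Actg2 (342 against 386 CPM), Des (508 against 513 CPM) and Tagln (3.25 against 7.22 CPM) were not. Myh11, the smooth muscle myosin heavy chain, was at 2750 and 2250 CPM in Cre+/- labelled libraries, against 1230 and 735 CPM in fl/fl labelled ones, and the part of smooth muscle content in these values was not tested. The other Kcnmb members each averaged under 1 FPKM, and Kcnmb2, picked after its values were seen, had 8 and 82 counts in Cre+/- labelled libraries, against 37 and 14 counts in fl/fl labelled ones.

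The 4 Kcnip subunits, calcium-binding proteins that attach to Kcnd channels in the cytoplasm, split in direction. Kcnip4 was at 2.60 and 2.97 FPKM in Cre+/- labelled libraries, against 0.336 and 1.14 FPKM in fl/fl labelled ones, a log2 fold change of 1.90 ± 0.66. Kcnip1 was at 0.855 and 1.04 FPKM (Cre+/-) against 2.96 and 1.35 FPKM (fl/fl), a log2 fold change of -1.18 ± 0.45, and Kcnip2 at 0.590 and 0.296 FPKM (Cre+/-) against 0.806 and 3.87 FPKM (fl/fl), a log2 fold change of -2.42 ± 0.89. Most of the Kcnip2 difference lay in fl/fl replicate 2, since with that library left out it was -0.81, and -3.16 with fl/fl replicate 1 left out. Kcnip3, also known as a calcium-dependent transcriptional repressor, was the most abundant of them and its groups overlapped, at 5.49 and 3.62 FPKM in Cre+/- labelled libraries, against 4.30 and 3.63 FPKM in fl/fl labelled ones. Summed, the 4 came to 9.53 and 7.92 FPKM in Cre+/- labelled libraries, against 8.41 and 9.99 FPKM in fl/fl labelled ones, so the sums overlapped. Kcnip1 and Kcnmb1 share a locus: Kcnmb1 lies on the plus strand of chromosome 11 from 33963013 to 33973641, inside Kcnip1 on the minus strand from 33629339 to 33993152. Their exons do not overlap in the annotation (0.0% of exon bases shared for both), and their differences ran in opposite directions. The length implied by the counts and FPKM of Kcnip1 was 6309 bases, against 6200 bases in that annotation. The 0.0% may therefore not cover all exons that were counted.

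The Kcnd pores to which Dpp6 and the Kcnip proteins bind carry a fast, inactivating current. Kcnd3, the main one here, was at 3.51 and 4.05 FPKM in Cre+/- labelled libraries, against 6.10 and 1.89 FPKM in fl/fl labelled ones, so that the fl/fl pair enclosed the other and the log2 fold change was -0.06 ± 0.52. Its sign turned in several settings, and it was 0.95 with fl/fl replicate 1 left out and -0.65 with fl/fl replicate 2 left out. Kcnd1 was at 1.33 and 1.05 FPKM (Cre+/-) against 1.06 and 0.842 FPKM (fl/fl), and Kcnd2, below the filter, at 0.382 and 0.556 FPKM (Cre+/-) against 1.42 and 0.288 FPKM (fl/fl). Relative to the summed Kcnd FPKM, Dpp6 stood at 1.01 and 0.914 in Cre+/- labelled libraries, against 0.0794 and 0.223 in fl/fl labelled ones, and the groups did not overlap. The same ratio for the summed Kcnip subunits was 1.83 and 1.40 (Cre+/-) against 0.979 and 3.31 (fl/fl), where the fl/fl pair enclosed the Cre+/- pair.

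**Figure D2:**
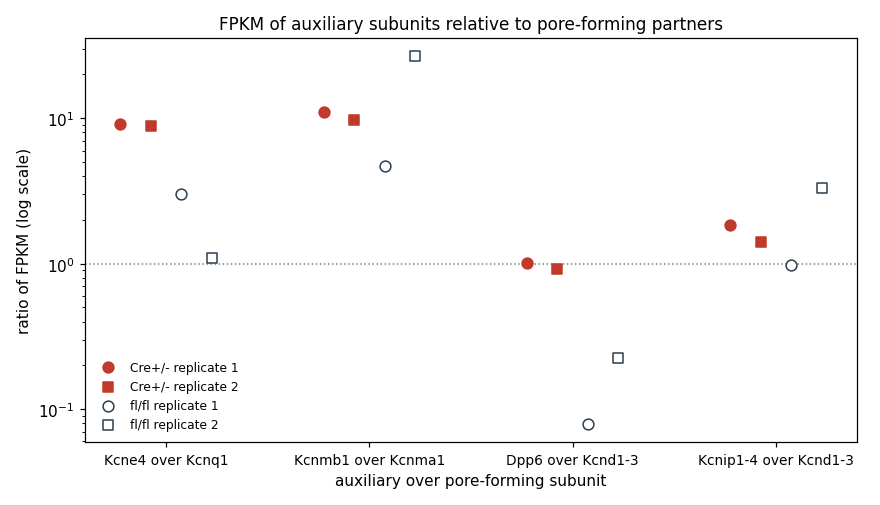
Ratio of the FPKM of auxiliary subunits to that of their pore-forming partners, on a log axis, with 1 point per library and the libraries labelled Cre+/- left of those labelled fl/fl. The ratios of Kcne4 to Kcnq1 (9.13 and 8.87 in Cre+/-, 2.99 and 1.09 in fl/fl) and of Dpp6 to Kcnd1, Kcnd2 and Kcnd3 together (1.01 and 0.914 in Cre+/-, 0.0794 and 0.223 in fl/fl) do not overlap between groups, while the ratios of Kcnmb1 to Kcnma1 and of the Kcnip to the Kcnd members do.

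Of the Kcnab subunits, cytoplasmic partners of Kcna channels, Kcnab2 was at 1.01 and 0.838 FPKM in Cre+/- labelled libraries, against 2.05 and 1.61 FPKM in fl/fl labelled ones, a log2 fold change of -0.98 ± 0.32. Leukocytes express Kcnab2 too, and summed markers of T and NK cells stood at 19.7 and 20.8 CPM in Cre+/- labelled libraries, against 65.3 and 77.4 CPM in fl/fl labelled ones; their part in the Kcnab2 value was not tested. All 8 of these markers had counts in all 4 libraries, and of the 6 tested 4 were lower without overlap. Neutrophil markers summed to 20.5 and 19.2 CPM in Cre+/- labelled libraries, against 140 and 119 CPM in fl/fl labelled ones, and 6 of 6 were lower without overlap. Macrophage markers summed to 360 and 322 CPM (Cre+/-) against 572 and 329 CPM (fl/fl), so these sums overlapped. Of 7 macrophage markers tested, 4 were lower and 2 higher without overlap. Kcnab1 had a small difference without overlap, at 0.898 and 1.12 FPKM in Cre+/- labelled libraries, against 1.23 and 1.23 FPKM in fl/fl labelled ones. All 7 Kcna pores averaged under 1 FPKM, among them Kcna5 at 0.440 and 0.481 FPKM in Cre+/- labelled libraries, against 0.959 and 0.826 FPKM in fl/fl labelled ones.

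Summed over the 18 auxiliary members, the level was 82.5 and 82.1 FPKM in Cre+/- labelled libraries, against 37.2 and 40.4 FPKM in fl/fl labelled ones. Kcne4 accounts for most of that gap, since without it the sums were 32.8 and 35.9 FPKM (Cre+/-) against 26.5 and 30.3 FPKM (fl/fl). Without Dpp6 and Kcnmb1 as well the order turned, to 14.6 and 17.3 FPKM in Cre+/- labelled libraries, against 21.5 and 22.3 FPKM in fl/fl labelled ones. The 62 pore-forming members summed to 164 and 152 FPKM (Cre+/-) against 127 and 146 FPKM (fl/fl). The auxiliary sum was thus 0.504 and 0.540 of the pore-forming sum in Cre+/- labelled libraries, against 0.293 and 0.276 of it in fl/fl labelled ones.

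Among the pore-forming members, Kcnk5 had the clearest separation. Kcnk5 (ENSMUSG00000023243, chromosome 14 from 20140057 to 20181809, minus strand) is a leak channel that opens at alkaline pH and on cell swelling. It stood at 16.9 and 13.4 FPKM in Cre+/- labelled libraries, against 3.29 and 4.38 FPKM in fl/fl labelled ones, a log2 fold change of 1.98 ± 0.28 that ran from 1.74 to 2.24 with 1 library left out. Kcnh2 was at 23.1 and 18.4 FPKM (Cre+/-) against 12.5 and 5.13 FPKM (fl/fl), a log2 fold change of 1.26 ± 0.43. Its fl/fl libraries were more than 2-fold apart, and with 1 library left out it ranged from 0.78 to 1.97. Kcnh3, of the ether-a-go-go family and low at 2.39 and 2.43 FPKM in Cre+/- labelled libraries, against 1.19 and 1.08 FPKM in fl/fl labelled ones, had much tighter pairs (1.09 ± 0.30, and 1.06 to 1.11 with 1 library left out).

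Smaller differences without overlap were seen for Kcnt2, a sodium-activated channel, at 1.57 and 1.56 FPKM in Cre+/- labelled libraries, against 1.26 and 0.685 FPKM in fl/fl labelled ones, and for Kcnn4, a calcium-activated channel of intermediate conductance, at 5.79 and 5.08 (Cre+/-) against 2.43 and 4.72 FPKM (fl/fl). Kcnk12, a tandem-pore subunit, had the largest log2 fold change of the tested pores (3.29 ± 1.21), but it rested on Cre+/- replicate 2, with 17 and 119 counts in Cre+/- labelled libraries, against 4 and 11 counts in fl/fl labelled ones. Without that library the value was 1.14. The same library had the highest sum of oviduct and ovary markers, 373 and 1060 CPM in Cre+/- labelled libraries, against 109 and 227 CPM in fl/fl labelled ones. Most of its sum came from Ovgp1, at 200 and 862 CPM (Cre+/-) against 1.69 and 86.1 CPM (fl/fl). Foxj1, a regulator of motile cilia, was at 26.1 and 74.4 CPM (Cre+/-) against 1.52 and 3.64 CPM (fl/fl). Pax8 overlapped between groups, at 39.3 and 41.0 CPM (Cre+/-) against 38.8 and 69.9 CPM (fl/fl). Star, Foxl2, Inha, Amh and Hsd3b1 were lower in Cre+/- replicate 2 than in Cre+/- replicate 1, as for Foxl2 (46.5 against 65.2 CPM). Of the 8 oviduct and ovary markers in the files 4 of 7 tested were higher without overlap, Hsd3b1 was at 0 in both fl/fl libraries, and the part of such tissue in the Kcnk12 value was not tested.

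Of the 19 pore-forming members tested, 3 were lower in Cre+/- labelled libraries without overlap, where 23.6% of all genes tested were. Kcnj8 was at 20.2 and 18.9 FPKM in Cre+/- labelled libraries, against 25.4 and 30.9 FPKM in fl/fl labelled ones, a log2 fold change of -0.53 ± 0.22. Its partner Abcc9, the sulphonylurea receptor, overlapped between groups at 10.4 and 12.7 FPKM (Cre+/-) against 13.2 and 7.14 FPKM (fl/fl), while the other ATP-sensitive pore Kcnj11 and receptor Abcc8 were at or below 0.493 and 0.0810 FPKM in every library. Kcnk2, a stretch-sensitive leak channel of the myometrium, was at 1.16 and 1.43 FPKM (Cre+/-) against 2.00 and 4.41 FPKM (fl/fl), a log2 fold change of -1.33 ± 0.49. Kcnk3, an acid-sensitive leak channel, was at 1.34 and 1.34 FPKM (Cre+/-) against 3.97 and 1.55 FPKM (fl/fl), a log2 fold change of -1.02 ± 0.50, and it was -0.26 without fl/fl replicate 1. The 3 leak channels Kcnk5, Kcnk2 and Kcnk3 thus differed in direction within 1 family, whose sum was 66.9 and 64.0 FPKM in Cre+/- labelled libraries, against 44.7 and 74.0 FPKM in fl/fl labelled ones.

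The modifier subunits join other voltage-gated pores and change their gating, and of them Kcnf1, Kcns3 and Kcng4 were picked after their values were seen. Kcnf1 was at 3.32 and 1.93 FPKM in Cre+/- labelled libraries, against 0.510 and 0.700 FPKM in fl/fl labelled ones (log2 fold change 2.11 ± 0.46). Kcns3 was at 4.02 and 3.39 FPKM (Cre+/-) against 0.992 and 1.81 FPKM (fl/fl), a log2 fold change of 1.39 ± 0.45, and Kcng3 at 1.82 and 1.43 FPKM (Cre+/-) against 0.182 and 0.639 FPKM (fl/fl), a log2 fold change of 1.97 ± 0.71. Kcng1 was higher as well, at 7.79 and 6.55 FPKM (Cre+/-) against 5.21 and 0.549 FPKM (fl/fl), but the gap to fl/fl replicate 1 was small, and its log2 fold change was 0.50 with fl/fl replicate 2 left out and 3.65 with fl/fl replicate 1 left out. Kcng4 had the lowest log2 fold change of all tested members (-3.02 ± 0.68), at 0.252 and 0.271 FPKM in Cre+/- labelled libraries, against 3.31 and 0.996 FPKM in fl/fl labelled ones, from 19 and 18 counts (Cre+/-) against 289 and 69 counts (fl/fl). Without overlap 4 of the 5 tested modifiers were higher and 1 lower, where 24.7% and 23.6% of all genes tested were. Another 4 modifiers lay below the filter, and some, such as Kcng3, passed it only through the group in which they were high. Nothing is read from this count.

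**Figure D3:**
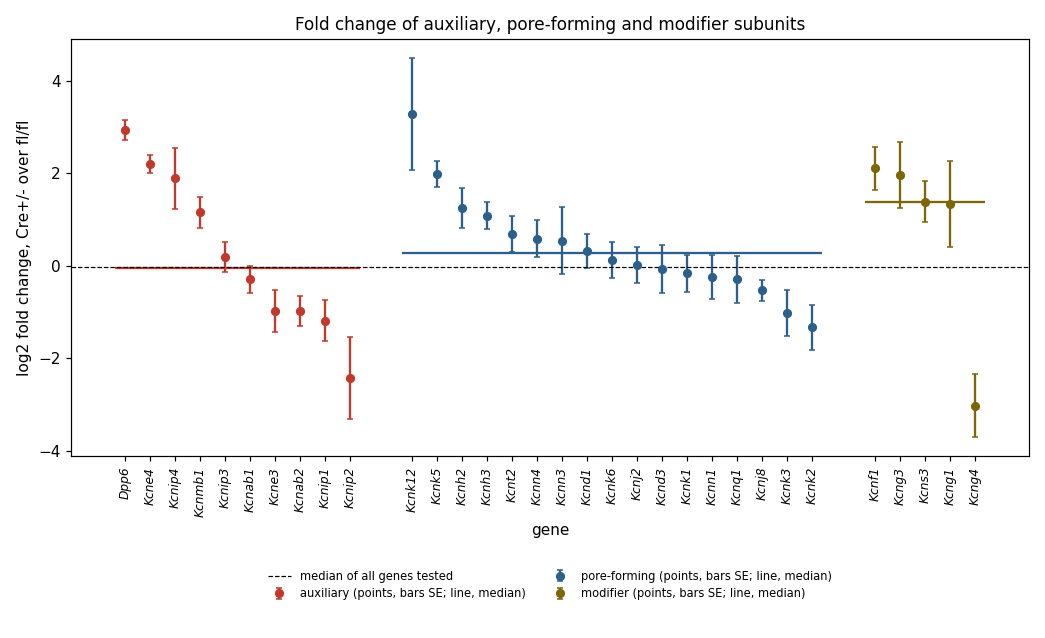
Log2 fold change of the libraries labelled Cre+/- over those labelled fl/fl for 32 of the 34 tested members, by role (points, edgeR estimate; bars, SE; coloured lines, median of all tested members of the role; dashed line, median of all 13513 genes tested). Auxiliary subunits spread from 2.94 for Dpp6 to -2.42 for Kcnip2 around a median of -0.04, and pore-forming subunits have a median of 0.28.

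The median log2 fold change was -0.04 over 10 tested auxiliary members, 0.28 over 19 pore-forming members and 1.39 over 5 modifiers, beside -0.03 over all 13513 genes tested. A mean of at least 1 FPKM is reached by some members only through the group in which they are high, so these medians describe the members that passed and not the family. Of the 10 auxiliary members 4 were higher and 5 lower without overlap of the groups, and of the 19 pore-forming members 9 were higher and 3 lower. All tested members together had 17 higher and 9 lower without overlap, while over all genes tested the percentages were 24.7% higher and 23.6% lower. Other annotated genes cover 12.2% of the exon bases of Kcnk2, 7.36% of Kcnip4, 5.98% of Kcnma1, 5.76% of Kcnk3 and 2.24% of Kcnab2. Those values are therefore uncertain, and the share of reads concerned was not measured. For Kcnab2 the length implied by counts and FPKM was 6977 bases, against 5578 bases in the annotation. Its 2.24% may therefore not describe all exons that were counted. The margin could be slight, as for Kcnd1, whose groups did not overlap in CPM but did in FPKM. With differences of at least 2-fold there were 13 higher and 5 lower members of 34, where 6.05% and 7.07% of all genes were that far apart. With 1 library left out 11 to 13 members were higher and 4 to 6 lower, where 6.11% to 10.3% and 7.24% to 8.2% of all genes were. The family was chosen with this contrast in view, so nothing is read from these shares.

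At an adjusted p under 0.05, edgeR's quasi-likelihood test called 0 members higher and 0 lower, and 0.0% of all genes in both directions. At an unadjusted p under 0.05 it had 12 members higher and 5 lower, with 7.3% and 6.59% of all genes. DESeq2 had 4 members higher and 1 lower past an adjusted p under 0.05, with 3.24% of all genes higher and 3.0% lower, and limma on log2(FPKM + 1) had 0 members and 0.0% of genes. The edgeR test without fl/fl replicate 1 called 16 members higher and 7 lower, with 17.5% of all genes higher and 13.9% lower. Without fl/fl replicate 2 it called 13 members higher and 5 lower, with 10.4% of all genes higher and 11.4% lower. In both fits only the Cre+/- pair gave a measure of variation, and the lone fl/fl library was assumed to vary like it. Without either Cre+/- library the test called 0 members and 0.0% of genes. Since this contrast led to the choice of the family, these counts are a description and support nothing about single members.

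Libraries of 1 group also differed from each other in these genes, which is given as a description with no test. In the Cre+/- pair 2 of the 34 tested members, Kcne3 and Kcnk12, differed at least 2-fold in CPM, where 2.84% of all genes tested did. In the fl/fl pair 17 of the 34 members differed that much, where 19.5% of all genes did. The median absolute log2 ratio within the Cre+/- pair was 0.23 for the members and 0.20 for all genes, and within the fl/fl pair it was 0.99 for the members and 0.44 for all genes. Members had lower levels than other tested genes, with a median of 2.75 FPKM against 7.24 FPKM, and the part of level in this difference was not tested. The direction was mixed. Kcng1 (8.88-fold), Kcnn3 (5.06-fold), Kcng4 (3.11-fold), Kcnd3 (3.02-fold), Kcnk3, Kcnh2 and Kcnip1 were among those higher in fl/fl replicate 1, and Kcnip2 (5.14-fold), Kcng3 (3.76-fold), Kcnk12, Kcnip4, Kcnq1, Kcnk2, Kcnk1, Kcnn4 and Kcnn1 in fl/fl replicate 2. Kcnn3, a calcium-activated channel whose excess disturbs labour in mice, is an example: it stood at 6.99 and 6.15 FPKM in Cre+/- labelled libraries, against 7.74 and 1.43 FPKM in fl/fl labelled ones.

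**Figure D4:**
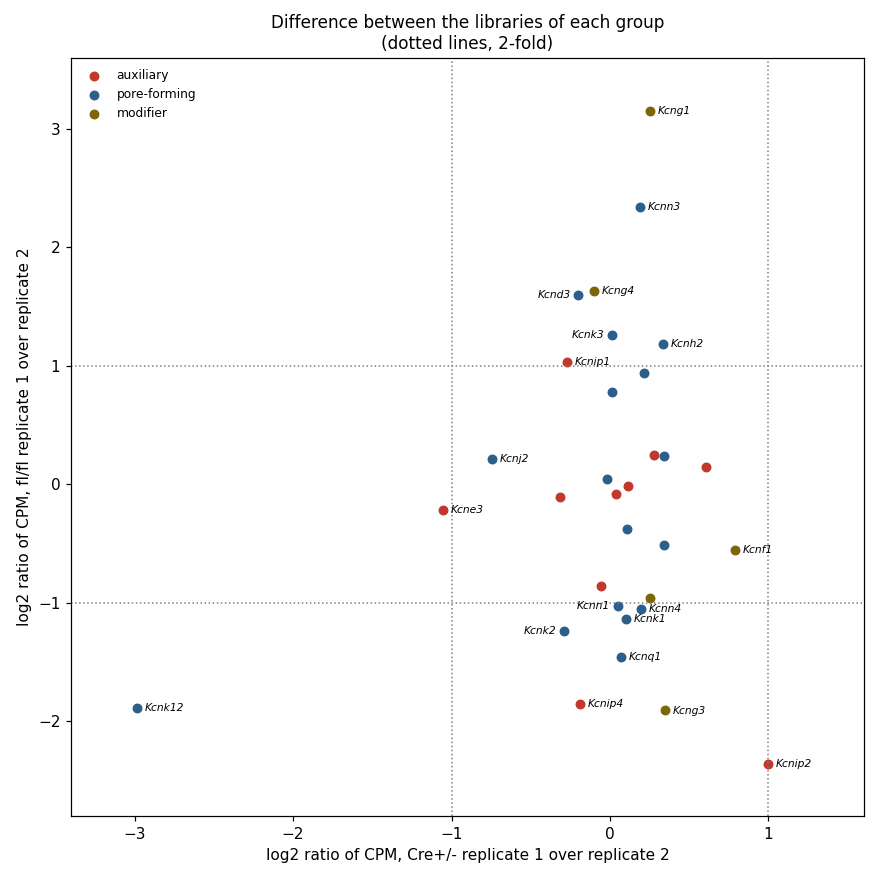
Log2 ratio of CPM between replicate 1 and replicate 2 for 32 of the 34 tested members, in Cre+/- labelled libraries (horizontal axis) and in fl/fl labelled ones (vertical axis), coloured by role. Of the members plotted, 16 lie beyond 2-fold on the vertical axis and 2 on the horizontal axis.

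The 59 members below a mean of 1 FPKM include Kcnh5 and Kcnma1 just under that limit (0.954 and 0.932 FPKM), while Kcng3 (1.02 FPKM) and Kcnd1 (1.07 FPKM) lie just above it. Kcnh5, an ether-a-go-go channel, was at 1.55 and 1.62 FPKM in Cre+/- labelled libraries, against 0.150 and 0.488 FPKM in fl/fl labelled ones. Kcnq5, a voltage-gated pore of smooth muscle and nerve, overlapped between groups at 0.774 and 0.872 FPKM (Cre+/-) against 0.867 and 0.293 FPKM (fl/fl). Of the 59, 21 still had at least 100 counts over the 4 libraries, 25 averaged under 0.1 FPKM, and Kcnk18 had no count. Without overlap 16 were higher and 6 lower in Cre+/- labelled libraries. With no filter, 33 of 92 members with a count were higher without overlap and 15 lower, beside 24.0% and 17.2% of 27379 genes. That fit called 16 members higher and 4 lower by edgeR at an adjusted p under 0.05, beside 3.63% and 3.41% of genes. Kcnq1ot1, the non-coding transcript that runs antisense to Kcnq1 and was named after its values were seen, had 328 and 269 counts in Cre+/- labelled libraries, against 115 and 55 counts in fl/fl labelled ones. It covers 2.96% of the exon bases of Kcnq1, and the sources used here do not say whether counting used strand, so reads there are uncertain.

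Of 51 genes that act beside potassium channels (other channels, pumps, calcium release channels and receptors), 50 were in the files and 34 were tested. None (0 higher, 0 lower) passed edgeR's quasi-likelihood test after adjustment, while without adjustment 8 were higher and 1 lower at p under 0.05, where 7.3% and 6.59% of all genes were. Without overlap 16 were higher and 2 lower, where 24.7% and 23.6% of all genes were, and the median log2 fold change was 0.31. Lrrc55, an auxiliary gamma subunit of the Kcnma1 channel, was at 0.460 and 0.744 FPKM in Cre+/- labelled libraries, against 2.55 and 2.33 FPKM in fl/fl labelled ones (log2 fold change -2.02 ± 0.38, edgeR adjusted p = 0.146). Lrrc26, another gamma subunit and far more abundant, went the other way without overlap, at 34.1 and 27.3 FPKM (Cre+/-) against 4.28 and 14.7 FPKM (fl/fl), a log2 fold change of 1.67 ± 0.62 with an edgeR adjusted p of 0.337; it was picked after its values were seen. Trpv4, a cation channel of the myometrium opened by stretch and swelling, was at 6.84 and 5.67 FPKM (Cre+/-) against 2.68 and 3.26 FPKM (fl/fl), and Ryr3, a calcium release channel, at 2.37 and 2.15 FPKM (Cre+/-) against 0.641 and 0.136 FPKM (fl/fl). None of these passed at an adjusted p under 0.05.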

How the data were processed

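The authors deposited, per the file headers, raw whole-number counts of reads for each gene together with FPKM. HISAT2, HTSeq 0.13.5 and GRCm38 are named per the submitters' processing notes; RNA was polyadenylated and the kit was NEBNext Ultra RNA, per the labels' protocols. The deposited FPKM values equal count over gene length and library total: implied lengths agreed within 1e-06 for 23463 of 23463 genes, and for 98.47% of genes they matched GENCODE mouse release 21 within 0.1%, which gave coordinates and exon overlaps. Among the members named here, Kcnip1, Kcnip2, Kcnab1, Kcnab2, Kcnt2 and Dpp10 did not match within that margin. Members and lists were chosen with earlier results of these data known.

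The 13513 genes averaging at least 1 FPKM were fitted with edgeR 4.0.16 (R 4.3.3), a quasi-likelihood test on counts scaled by TMM, with no term but the group, leaving 2 residual degrees of freedom, adjusted by Benjamini-Hochberg over all genes tested. Fold changes are libraries labelled Cre+/- over those labelled fl/fl; SE is the log2 fold change over the square root of the test statistic. Members below the filter take their values from a fit with no filter. Groups do not overlap where both CPM values of one lie above both of the other. Named were the 10 members of highest mean, auxiliary members that passed and their pores, the 8 pores of largest change in each direction without overlap, members nearest the filter, and the 4 partner genes of smallest p without overlap. Others were chosen after their values were seen. Some genes that this rule names are not reported here; they count in totals, sums and medians and are left out of the plots. P-values cover only variation among these libraries, possibly technical. In CPM, 3 counts were worth 0.131 to 0.172. The procedure was tested on simulated data. Alternatives were scaling, filter, DESeq2 1.42.0, limma 3.58.1 on log2(FPKM + 1) and log2(FPKM + 0.1), the replicate number as a block, and each library left out.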

Additional observations from a re-analysis of the deposited data

How the results depend on the processing

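The number of members called at an adjusted p under 0.05 was 0 in edgeR and stayed at 0 with both other scalings, a filter of 5 FPKM, both limma tests and the replicate block. It was 5 of 34 with DESeq2 (843 of all 13513 genes), 20 of 92 with no filter (1928 of 27379 genes), and 0 to 23 of 34 with 1 library left out (0 to 4249 of 13513 genes). The pore-forming median of 0.28 was 0.16 with limma on log2(FPKM + 1), 0.27 with the replicate block and 0.14 to 0.45 with 1 library left out. The auxiliary median of -0.04 was 1.20 with a filter of 5 FPKM, where 3 members were left, -0.06 with the replicate block and -0.14 to 0.01 with 1 library left out. The replicate numbers were not taken to pair the libraries, since deviations of the groups correlated at -0.061. Of the 28 named members with alternatives, 23 kept their sign in all settings run. A further 6 named members, not among those 28, lie below the filter and have a value only with no filter. With 1 library left out, Kcnk1 ran from -0.61 to 0.51, Kcnq1 from -0.84 to 0.61, Kcnn3 from -0.20 to 2.15, Kcnip3 from -0.14 to 0.47 and Kcnd3 from -0.65 to 0.95. The turns came without fl/fl replicate 2 for Kcnk1, Kcnq1 and Kcnn3, without Cre+/- replicate 1 for Kcnip3, and without Cre+/- replicate 1 (0.03) or fl/fl replicate 1 for Kcnd3. Kcnd3 was also 0.14 in the blocked fit, and 0.08 and 0.14 with limma at pseudocounts of 1 and 0.1. Beyond the libraries left out and the members left by a filter, the cause was not tested. With 2 libraries a group edgeR called 0 of 13513 genes, so a missing call does not show that a member did not differ.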
